A study of Mus musculus with 27 samples.

Results

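The genes of ER folding and early secretion followed here are 48 mouse genes. Most encode proteins of entry into the endoplasmic reticulum (ER), of folding there, or of transport between the ER and the Golgi, and 4 encode transcription factors. The genes were chosen by name, and each probe set on the arrays was taken if it was annotated to 1 gene only and that gene, by its current symbol or an older alias, was in the list. Of the 48 genes, 47 had such a probe set, and they were represented by 93 of the 36701 probe sets measured. The exception was Sec61g, a subunit of the translocation channel, whose probe set was annotated to several genes. Of the 93 probe sets, 72 from 45 genes reached a mean signal of 200 in at least 1 group and were tested. The other 21 stayed below that level, among them the 1 probe set of Calr (calreticulin, a lectin chaperone) and both probe sets of Ssr4 (a subunit of the TRAP complex at the translocation channel).

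Secreted and membrane proteins enter the ER through the Sec61 channel, are folded by chaperones and disulphide isomerases, and leave in vesicles coated with COPII. COPI vesicles bring escaped ER residents back, and KDEL receptors pick out the soluble ones by a short signal at their end. The transcription factors Xbp1, Atf4 and Ddit3 belong to the unfolded protein response, while Creb3l2 (also known as BBF2H7) is a membrane-bound factor of the CREB3 family that is known in mouse cartilage for activating genes of the early secretory pathway, Sec23a among them. Cartilage cells secrete large amounts of collagen and proteoglycan.

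Gene expression was measured in limb bud mesenchymal cells of the mouse that were allowed to form cartilage cells in vitro. There were 3 groups: multipotential mesenchymal cells, cells harvested at day 1 (labelled chondroprogenitors) and cells harvested at day 3 (labelled chondroblasts). Each group had 3 RNA samples, numbered 1, 3 and 4, and every sample was hybridised to 3 Affymetrix array types (A, B and C), for 27 arrays. The subridge region of the limb was the source of the cells, fibroblasts are named as their contaminant, and the labels give no strain, age, genotype, added factor or culture system. The labels do not say whether the samples of a group came from separate cultures or animals, so the p-values speak of the spread among these RNA samples alone, and that spread may be technical.

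All signals below are MAS5 intensities, a summary of a probe set's brightness on 1 array, rescaled to a trimmed mean of 500 per array, and are given for replicates 1, 3 and 4 in that order. A level of 1 probe set says nothing about the level of another. Log2 changes are differences of group means of log2(signal + 50) with their standard errors from limma (n = 3 samples per group), and p-values are adjusted over all 23545 probe sets tested, with a threshold of 0.05.

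Most cartilage markers followed the labels. Of 15 tested genes on a list of chondroprogenitor and chondroblast markers, 14 were higher at day 3 than in mesenchymal cells, and their summed signal was 4978 to 5945 in mesenchymal samples, 30122 to 34893 at day 1 and 91598 to 105180 at day 3. Between the days Sox9 was lower at day 3 (-0.87 ± 0.19, adjusted p = 0.0321, limma), and Sox6 did not pass (-0.98 ± 0.25, adjusted p = 0.0935). Col2a1 and Sox5, also listed, were on the arrays but stayed below the signal level needed for testing. Fibroblast markers moved with day 3 as well: 8 of 12 were higher and 1 was lower than in mesenchymal cells, with summed signals of 11413 to 12499 in mesenchymal samples, 11748 to 13656 at day 1 and 27707 to 31855 at day 3. Summed signals of 5 erythroid genes, all lower at day 3 than in mesenchymal cells, were 114428 to 251517 in mesenchymal samples, 8822 to 115104 at day 1 and 6384 to 19538 at day 3. Of 6 macrophage genes 3 were higher at day 3, of 7 endothelial genes 1 was higher and 3 were lower, of 7 epithelial genes 1 was higher, and no muscle gene of 4 passed. In bulk RNA, fewer cells of a type and less RNA per cell cannot be told apart, and the part of these cell types in the results below was not tested. Mesenchymal replicate 1, day 1 replicate 4 and day 3 replicate 4 stood apart, with an 18S control signal of 27447, 33264 and 19946, against 1623 to 5631 in the other 6 samples. Scan batches, read from the arrays' experiment records, overlapped only in part with the groups. On the B arrays all day 3 samples had a batch of their own, so that day 3 and scan batch cannot be told apart there. On the A arrays, which held 54 of the 72 tested member probe sets, no batch held both day 3 and mesenchymal samples. Mesenchymal replicate 4 was alone in its batch there, so a fixed block takes nothing from it. The block compares day 3 with mesenchymal replicates 1 and 3 only through the day 1 samples, of which replicate 1 alone shared their batch.

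Calls among the genes of ER folding and secretion all went up, and most of them came at day 3. By role, 3 of 4 transcription factors, 2 of 3 KDEL receptors, 4 of 6 COPII genes and, in the fit with no block, 0 of 4 chaperones were higher at day 3 than in mesenchymal cells; the differences between roles were not tested. At day 3 against mesenchymal cells, 24 of the 72 tested probe sets were higher and 0 were lower (33.3%, against 10.6% of all probe sets tested that were called, 6.54% higher and 4.03% lower). These 24 belonged to 17 of the 45 tested genes, and no share by gene was counted over all genes. At day 1 against mesenchymal cells, 6 probe sets of 4 genes were higher and 0 were lower (8.33%, against 4.79% of all probe sets called, 3.61% higher and 1.18% lower). At day 3 against day 1, 5 probe sets of 4 genes were higher and 0 were lower (6.94%, against 1.61% of all probe sets called, 1.13% higher and 0.484% lower). Over the 3 groups together, 20 of the 72 passed limma's F test (27.8%, against 8.95% of all probe sets). The counts at an unadjusted p under 0.05, in either direction, were 36 in the day 3 to mesenchymal comparison (24.5% of all probe sets passed so), 14 in the day 1 to mesenchymal comparison (19.4% of the 72, close to 18.6% of all) and 29 between the days (40.3% of the 72 and 10.8% of all).

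The median log2 change of the 72 probe sets was 0.37 for day 3 over mesenchymal cells, 0.0014 for day 1 over mesenchymal cells and 0.44 for day 3 over day 1, where the medians of all tested probe sets were -0.08, -0.05 and -0.03. These comparisons share samples: both against mesenchymal cells use the same mesenchymal samples, and the step between the days uses samples of each. Sample by sample, the members' median relative to the mean of the mesenchymal samples was -0.10, -0.01 and 0.09 in mesenchymal cells, 0.12, 0.09 and -0.03 at day 1 and 0.51, 0.35 and 0.40 at day 3. The 3 day 3 samples lay above the other 6, and the day 1 samples overlapped with the mesenchymal ones.

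These counts moved with how scan batch, sample quality and pairing were treated. With scan batch as a block, the members higher numbered 11 at day 3 over mesenchymal cells (3.47% of all probe sets were then higher), 3 at day 1 over mesenchymal cells (2.22%) and 4 at day 3 over day 1 (0.862%). For day 3 on the B arrays the block entered as a random one, which does not separate batch from group: this holds for Creb3l2, Sec24d and the B probe sets of Kdelr3 and Lman1, 6 of the 11 probe sets. The members' median at day 3 over mesenchymal cells was 0.60 with the block and 0.37 without it. Of the 24 calls without the block, 18 had a larger log2 change with it. Of these 18, 16 were on the A arrays, where the block takes nothing from mesenchymal replicate 4. Leaving that sample out with no block gave a median of 0.47. The part of that sample in the larger changes was not tested. Within the batch of A arrays that held both days, the median of 54 member probe sets at day 3 (3 samples) against day 1 (2 samples) was 0.51, where all samples gave 0.46. Within the batches that held day 1 and mesenchymal samples, the members' median was 0.22 on A (1 sample against 2), 0.06 on B (3 against 2) and -0.35 on C (3 against 1), where all samples gave 0.03, 0.03 and -0.37. On the C arrays, 6 member probe sets had a median of 0.14 at day 3 against mesenchymal cells within 1 batch (3 samples against 1), and 0.40 at day 3 against day 1 (3 against 3). Without the 3 samples of high 18S signal, 18 members were higher at day 3 (6.38% of all probe sets) and 5 at day 1 (3.53%) than in mesenchymal cells, and 6 at day 3 than at day 1 (0.832%). With array weights, 31 were higher and 3 lower at day 3 than in mesenchymal cells (9.67% of all probe sets were higher), 7 were higher and 1 lower at day 1 (5.85%), and 18 were higher at day 3 than at day 1 (2.9%).

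Over the 3 array types together, deviations from the group means correlated weakly between day 3 and day 1 samples of the same number (0.11, 0.13 and 0.25 for numbers 1, 3 and 4). On the A arrays alone these correlations were 0.30, 0.33 and 0.48. The step from day 1 to day 3 was therefore also fitted on those 6 samples with the number as a block, a fit chosen after seeing the data. Both samples of number 4 had a high 18S signal. Whether a number marks a shared culture or RNA quality was not tested. In that fit 23 member probe sets of 19 genes were higher at day 3 than at day 1 and 0 were lower (31.9%, against 2.92% of all probe sets that were higher). All 5 calls of the fit without the block were among them. In the gene paragraphs below, the replicate block means this fit of 6 samples. A replicate block over all 9 samples gave 4 calls at this step. Of the 72 member probe sets, 51 (70.8%) were higher at day 3 in all 3 same-numbered pairs, against 18.2% of all probe sets tested.

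**Figure D1:**
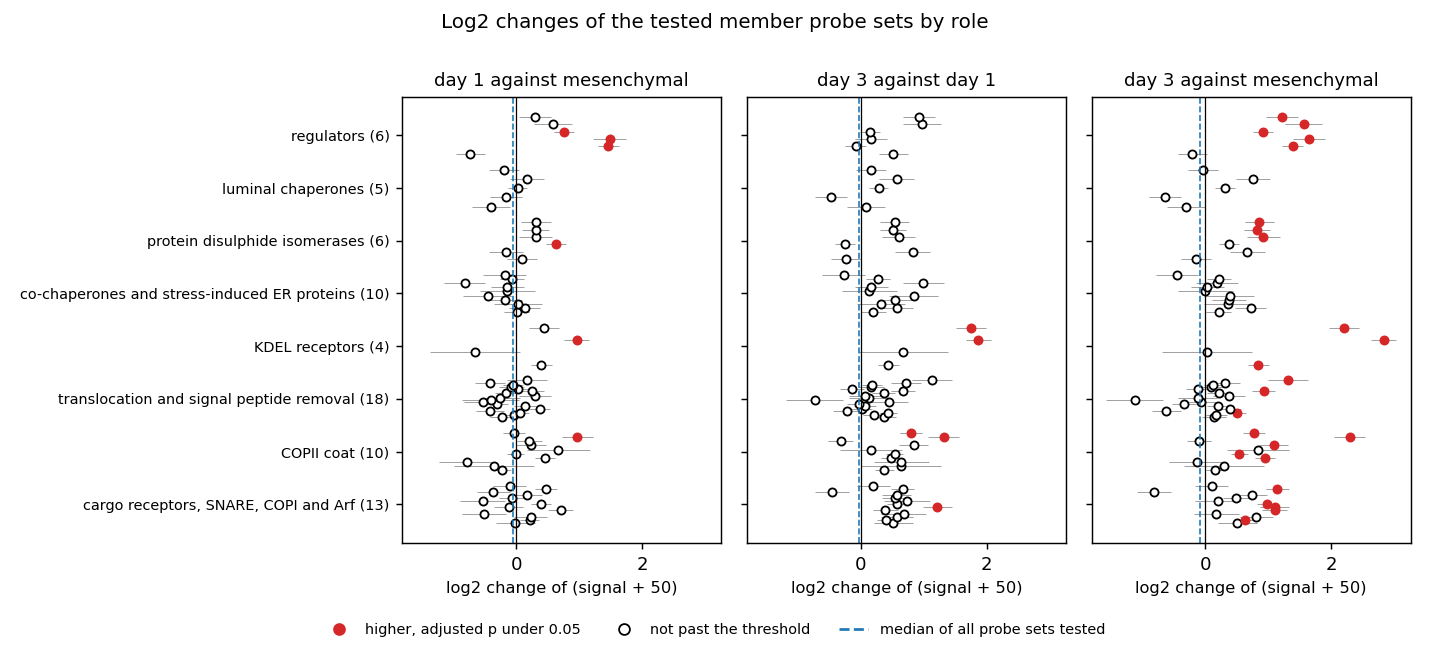
Log2 change of (signal + 50) for the 72 tested member probe sets, with bars for the standard error, by role (number of probe sets in parentheses) in 3 comparisons. Filled points passed the adjusted threshold of 0.05, and the dashed line is the median of all probe sets tested (-0.05, -0.03 and -0.08 in the panels from left to right). The 24 filled points at day 3 against mesenchymal lie to the right, with none among the luminal chaperones or the co-chaperones.

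Of the 4 transcription factors, Creb3l2, Xbp1 and Ddit3 were higher at day 3 than in mesenchymal cells, and Creb3l2 was already higher at day 1. Creb3l2 had 3 probe sets, all on the B array, and the one of highest signal and the next one given here share a source sequence. In the one of highest signal, the signals were 3547, 5909 and 8339.6 in mesenchymal cells, 15776, 15355 and 16166 at day 1 and 16469, 20265 and 16470.0 at day 3. All day 1 and day 3 samples lay above all mesenchymal samples, and the day 3 samples lay just above the day 1 samples. The log2 change was 1.49 ± 0.26 (adjusted p = 0.00324) at day 1 against mesenchymal cells, 1.65 ± 0.26 (adjusted p = 0.000725) at day 3 against mesenchymal cells, and 0.16 ± 0.26 (adjusted p = 0.897) between the days. Another probe set of Creb3l2 gave 1448, 1188 and 1255 in mesenchymal cells, 3630.1, 3695 and 3659 at day 1 and 3260.0, 4066 and 3115 at day 3. Here too the mesenchymal samples were lowest, while the 2 later groups overlapped. Its log2 change was 1.47 ± 0.17 (adjusted p = 0.000129) at day 1 and 1.38 ± 0.17 (adjusted p = 8.65e-05) at day 3, both against mesenchymal cells, with -0.08 ± 0.17 between the days.

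The last Creb3l2 probe set was at 1528, 1283 and 1451 in mesenchymal cells, 2518, 2315 and 2513 at day 1 and 2879.7, 2702 and 2577 at day 3, with 0.77 ± 0.16 (adjusted p = 0.0123) at day 1 and 0.92 ± 0.16 (adjusted p = 0.00193) at day 3, both against mesenchymal cells. With scan batch as a block, the 3 probe sets kept their calls at day 1 (adjusted p = 0.00142, 0.00111 and 0.0369). Within the batch of B arrays that held 3 day 1 and 2 mesenchymal samples, the log2 changes were 1.77, 1.45 and 0.78. The calls at day 3 against mesenchymal cells also stayed (adjusted p = 0.00201, 0.000274 and 0.00517). For day 3 on the B arrays, however, the block was a random one and does not separate scan batch from group. The day 1 call of the last probe set was lost without day 1 replicate 1 (adjusted p = 0.0665) and without mesenchymal replicate 3 (0.0513).

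Xbp1, the factor made active when Ire1 splices its RNA, was higher at day 3. Its signals were 492, 618 and 606 in mesenchymal cells, 761, 764 and 613 at day 1 and 1815, 1698 and 875 at day 3. Day 3 replicate 4, one of the samples of high 18S signal, lay well below the other day 3 samples and yet above every earlier sample. The log2 change was 1.22 ± 0.25 (adjusted p = 0.00853) at day 3 against mesenchymal cells, 0.29 ± 0.25 (adjusted p = 0.59) at day 1 against mesenchymal cells and 0.93 ± 0.25 (adjusted p = 0.115) between the days. The call against mesenchymal cells was lost when blocked on scan batch (1.41 ± 0.50, adjusted p = 0.152) and without day 3 replicate 1 (0.0501), and the step between the days passed with the replicate block (adjusted p = 0.00908). The probe set does not tell spliced from unspliced Xbp1 RNA here.

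Ddit3, which encodes CHOP, a factor induced by prolonged ER stress, had 74.8, 153 and 235 in mesenchymal cells, 239, 241 and 237 at day 1 and 582, 434 and 553 at day 3. The groups did not overlap, and day 3 was the highest. The log2 change was 1.56 ± 0.30 (adjusted p = 0.00555) at day 3 against mesenchymal cells (adjusted p = 0.0696 when blocked on scan batch). It was 0.58 ± 0.30 (adjusted p = 0.335) at day 1 against mesenchymal cells and 0.98 ± 0.30 (adjusted p = 0.179) between the days, where the replicate block gave an adjusted p of 0.0157. The mesenchymal mean was below 200, so the size of this change depends on the pseudocount. Atf4, the factor translated when the ER stress kinase Perk and related kinases are active, had 9384, 8238 and 7202 in mesenchymal cells, 5327, 3814 and 5988 at day 1 and 6042, 5844 and 10134 at day 3. All day 1 samples lay below all mesenchymal samples, but no comparison passed the threshold (-0.73 ± 0.23, adjusted p = 0.103 at day 1 and -0.21 ± 0.23, adjusted p = 0.627 at day 3, both against mesenchymal cells, and 0.51 ± 0.23, adjusted p = 0.448 between the days). With the replicate block the step between the days passed (adjusted p = 0.0445), while array weights and leaving out day 3 replicate 4 each brought the lower level at day 1 past the threshold.

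**Figure D2:**
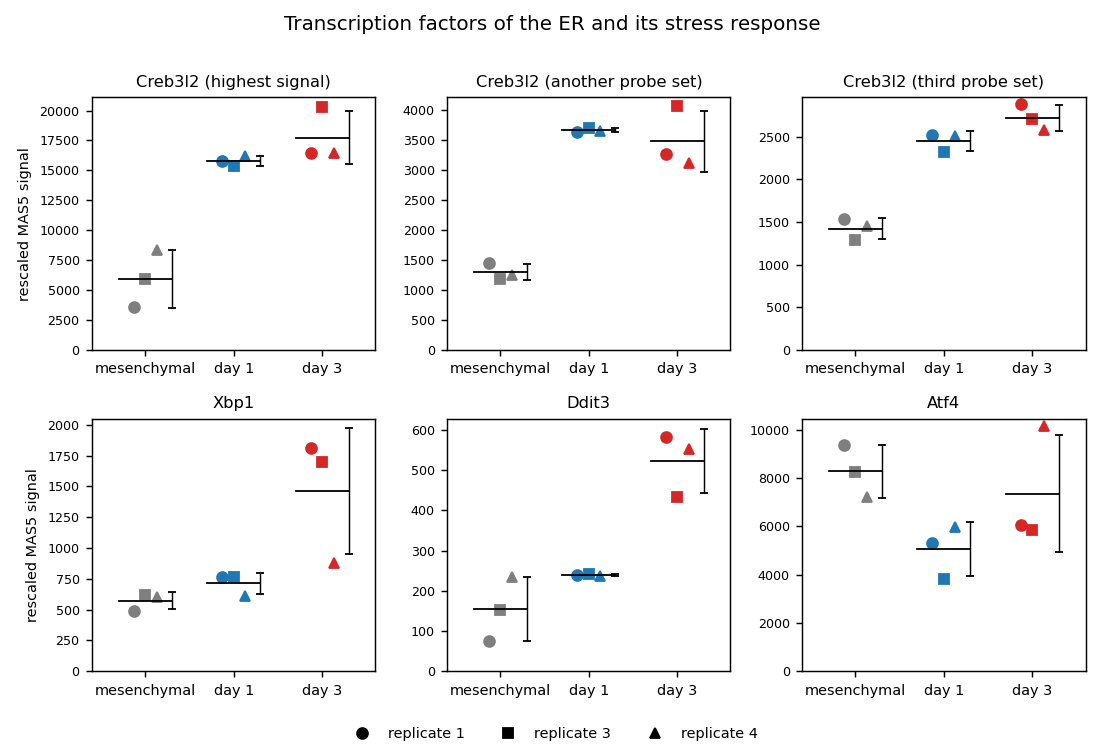
Rescaled MAS5 signal of the 6 probe sets of Creb3l2, Xbp1, Ddit3 and Atf4 in the 9 samples, by group, with the replicate number as the marker, the group mean as a line and the SD as a bar. Creb3l2 is higher at day 1 and day 3 than in mesenchymal cells in all 3 probe sets, Xbp1 and Ddit3 are highest at day 3, and the lowest Atf4 signals are at day 1.

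The KDEL receptors held the member with the largest change. Kdelr3 was measured by a probe set on the A array and by another on the B array. On A its signals were 349, 302 and 233 in mesenchymal cells, 678, 566 and 607 at day 1 and 2775, 2402 and 2014 at day 3. The 3 groups did not overlap, and each later group was higher. The log2 change was 2.83 ± 0.20 (adjusted p = 2.27e-06) at day 3 against mesenchymal cells, 1.87 ± 0.20 (adjusted p = 0.00036) at day 3 against day 1 and 0.96 ± 0.20 (adjusted p = 0.0146) at day 1 against mesenchymal cells. Blocking on scan batch gave adjusted p-values of 0.000823, 0.00117 and 0.119, so that the day 1 call was lost, as it was without day 1 replicate 1 (0.0735). Within single batches the log2 change was 1.93 at day 3 (3 samples) against day 1 (2 samples), and 0.96 at day 1 (1 sample) against mesenchymal cells (2 samples).

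On B, Kdelr3 signals were 493, 402 and 381 in mesenchymal cells, 772, 560.2 and 485 at day 1 and 2314, 2451 and 1663 at day 3, and day 1 replicate 4 fell within the mesenchymal range. This probe set changed by 2.19 ± 0.24 (adjusted p = 3.18e-05) at day 3 against mesenchymal cells and by 1.75 ± 0.24 (adjusted p = 0.00128) between the days, while day 1 against mesenchymal cells did not pass (0.45 ± 0.24, adjusted p = 0.342). The names of both Kdelr3 probe sets, and that of the Creb3l2 probe set of highest signal, carry suffixes that Affymetrix gave to probe sets made under relaxed rules for unique probes. So do names of other members' probe sets, among them all tested ones of P4hb, Arf4 and Copb2. Kdelr1 had 1626, 1663 and 2187 in mesenchymal cells, 2469, 2282 and 2462 at day 1 and 3243, 2873 and 3785 at day 3. Its groups did not overlap, and it was higher at day 3 than in mesenchymal cells (0.84 ± 0.17, adjusted p = 0.00633, and 0.074 with scan batch as a block). It lost that call without the 3 samples of high 18S signal.

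Kdelr2 did not follow the other receptors. Its signals were 4953, 3489.7 and 1658 in mesenchymal cells, 1219, 1056 and 5524 at day 1 and 1730.1, 1709 and 10185 at day 3. The highest value of each group came from the sample of high 18S signal, and what that sample's RNA contributes was not tested. Its log2 change was 0.03 ± 0.71 (adjusted p = 0.985) at day 3 against mesenchymal cells, and 0.68 ± 0.71 (adjusted p = 0.83) at day 3 against day 1, where the replicate block gave an adjusted p of 0.00841.

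COPII coat members formed the next group, with 4 of 6 genes higher at day 3 than in mesenchymal cells and a median log2 change of 0.65 over the 6 genes. By probe set, 5 of 10 were higher, against 6.54% of all probe sets tested. Sec24d, which binds cargo in the inner coat, had 270.1, 400.1 and 344 in mesenchymal cells, 727, 905 and 525 at day 1 and 1934, 2069.6 and 1525 at day 3. The 3 groups did not overlap. The log2 change was 2.29 ± 0.25 (adjusted p = 3.09e-05) at day 3 against mesenchymal cells, 1.32 ± 0.25 (adjusted p = 0.0136) at day 3 against day 1 and 0.97 ± 0.25 (adjusted p = 0.0374) at day 1 against mesenchymal cells. The first of these held in all 20 alternatives tried, though the scan batch block does not separate batch from day 3 on the B arrays. For the step between the days, the replicate block gave an adjusted p of 0.000814. The day 1 call was lost when blocked on scan batch (adjusted p = 0.0916) and when any 1 of 6 samples was left out (adjusted p = 0.0607 to 0.186, the highest without day 1 replicate 3), and the step between the days when any 1 of 4 was (0.0577 to 0.0907). Within the batch of B arrays holding both groups, the log2 change at day 1 against mesenchymal cells was 0.99.

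Sec31a, of the outer coat, had 1357, 1404 and 1556 in mesenchymal cells, 1618, 1112 and 1537 at day 1 and 2728, 2379 and 2372 at day 3. Day 1 overlapped with mesenchymal cells, and day 3 was above both. Sec31a changed by 0.80 ± 0.17 (adjusted p = 0.0372) between the days and by 0.77 ± 0.17 (adjusted p = 0.0129) at day 3 against mesenchymal cells. Blocking on scan batch gave adjusted p-values of 0.0514 and 0.0737. Within the batch of A arrays holding both days the step was 0.90. The step between the days was past the threshold in 9 of 21 alternatives only and was lost when any 1 of 7 samples was left out (adjusted p = 0.0588 to 0.187). It was also lost with a replicate block over all 9 samples, and passed with the block on the 6 samples of both days (0.00491). The call against mesenchymal cells was lost without day 3 replicate 1 (0.0678).

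Sec13, the partner of Sec31 in the outer coat, had 1711, 2059.7 and 2009 in mesenchymal cells, 2943, 2722 and 2379 at day 1 and 4289, 3589.9 and 3385 at day 3. Its groups did not overlap, and the log2 change was 0.94 ± 0.16 (adjusted p = 0.00216) at day 3 against mesenchymal cells (0.0504 with scan batch as a block). Sec23a, the inner coat subunit whose gene is a known target of Creb3l2 in mouse cartilage, had 2058, 2311 and 2285 in mesenchymal cells, 2148, 2192 and 2278 at day 1 and 3392, 3078 and 3238 at day 3 in its probe set of highest signal. Day 1 and mesenchymal samples overlapped, and the 3 day 3 samples were above them. It changed by 0.54 ± 0.14 (adjusted p = 0.0251) at day 3 against mesenchymal cells and by -0.01 ± 0.14 (adjusted p = 0.988) at day 1 against mesenchymal cells. The first was lost when any 1 of 5 samples was left out (adjusted p = 0.0514 to 0.107). Another Sec23a probe set changed by 1.08 ± 0.24 (adjusted p = 0.0117) at day 3 against mesenchymal cells and lost the call without day 3 replicate 1 (0.0641), and the one on the C array by 0.84 ± 0.50 (adjusted p = 0.323). Neither call held when blocked on scan batch (adjusted p = 0.33 and 0.117). Sec23b, the paralog, and Sar1a, the GTPase that starts the coat, did not pass in any comparison (-0.11 ± 0.19 and 0.15 ± 0.15 at day 3 against mesenchymal cells).

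**Figure D3:**
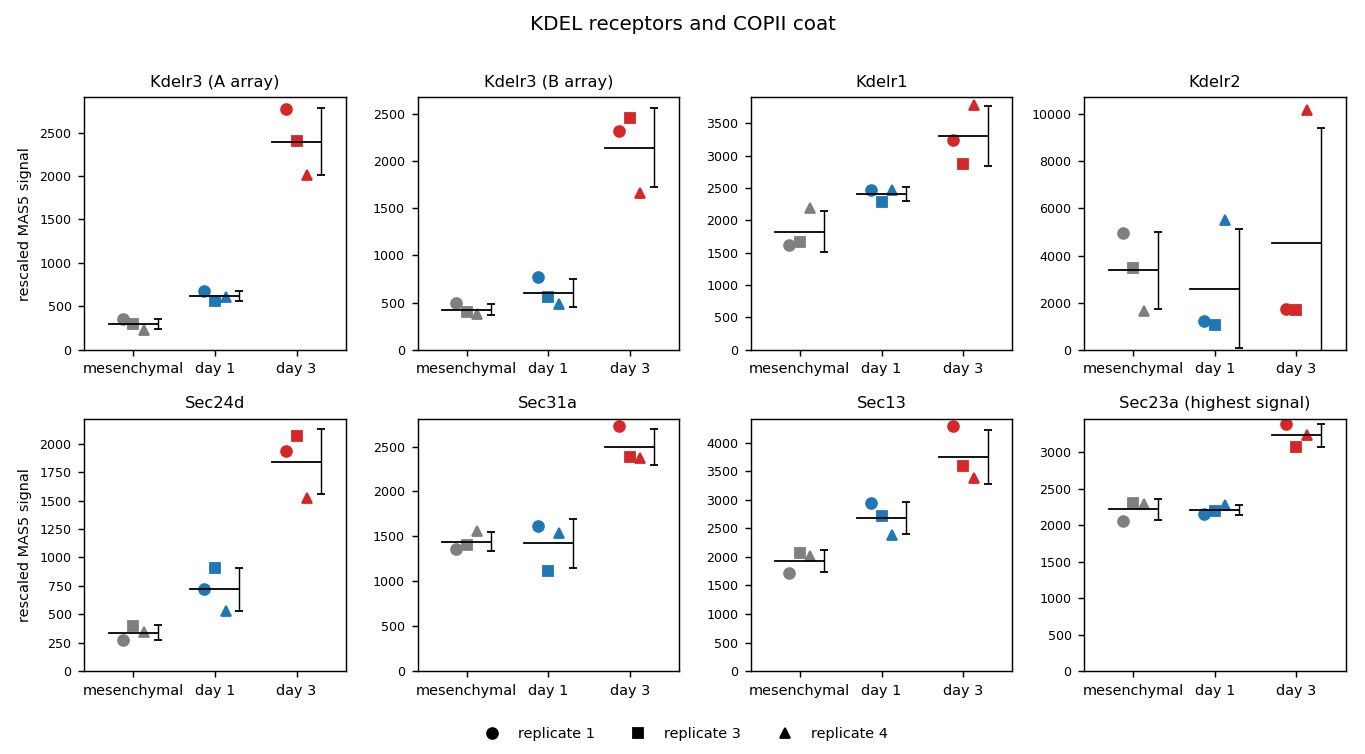
Rescaled MAS5 signal of KDEL receptor (upper row) and COPII coat (lower row) probe sets in the 9 samples, by group, with the replicate number as the marker, the group mean as a line and the SD as a bar. Kdelr3 and Sec24d have day 3 samples far above the rest, and the high Kdelr2 samples differ from the rest of their groups.

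Of the cargo receptors, the SNARE protein Sec22b, COPI subunits and Arf4, 4 of 7 genes were higher at day 3 than in mesenchymal cells, with a median of 0.63 over the 7. By probe set, 5 of 13 were higher, against 6.54% of all probe sets tested. Lman1 (ERGIC-53), a lectin that takes glycoproteins out of the ER, had 947, 1149.8 and 1096 in mesenchymal cells, 1588, 1321 and 1339 at day 1 and 2362, 1864 and 2209.8 at day 3 on the A array. The groups did not overlap, and the log2 change was 0.98 ± 0.16 (adjusted p = 0.0022) at day 3 against mesenchymal cells (0.0454 with scan batch as a block), a call kept in all 20 alternatives. On the B array Lman1 had 635, 691 and 714 in mesenchymal cells, 737, 595 and 547 at day 1 and 1985, 1551 and 1121 at day 3. There the first 2 groups overlapped, and the step lay between the days (1.22 ± 0.23, adjusted p = 0.0156). That step was lost when any 1 of 4 samples was left out (adjusted p = 0.0677 to 0.113). At day 3 against mesenchymal cells the B probe set changed by 1.10 ± 0.23 (adjusted p = 0.00725), lost without day 3 replicate 1 (0.0553), and the one on C by 0.20 ± 0.36 (adjusted p = 0.78).

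Cope, a COPI subunit, had 751, 1016 and 1256 in mesenchymal cells, 1828, 1826 and 1328 at day 1 and 2278, 2072 and 2169 at day 3. Its groups did not overlap, and it changed by 1.10 ± 0.20 (adjusted p = 0.00397) at day 3 against mesenchymal cells, a call kept in all 20 alternatives, and by 0.71 ± 0.20 (adjusted p = 0.0709) at day 1. Copa, the largest COPI subunit, had 2385, 2364 and 2436 in mesenchymal cells, 3203, 2439 and 2799.7 at day 1 and 3489, 3597 and 4115 at day 3. Day 3 against mesenchymal cells was 0.63 ± 0.15 (adjusted p = 0.0186), lost with scan batch as a block (0.0868) and without day 3 replicate 3, day 3 replicate 4 or mesenchymal replicate 3 (0.0554 to 0.0563). Sec22b had 4 tested probe sets that differed among themselves. One had 456, 539.9 and 563 in mesenchymal cells, 734, 669.6 and 821 at day 1 and 1377, 1139 and 1109 at day 3 and was higher at day 3 than in mesenchymal cells (1.14 ± 0.18, adjusted p = 0.00136, and 0.0857 with scan batch as a block). The others changed by 0.49, 0.74 and -0.82 and did not pass. Copb2, Arf4 (a GTPase that recruits the COPI coat) and Surf4 (a cargo receptor of the ER) did not pass in any comparison of the fit of 9 samples. With the replicate block, Arf4 and 1 probe set of Copb2 passed at day 3 against day 1 (adjusted p = 0.0183 and 0.00668).

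Few folding factors passed. Of the 4 luminal or membrane chaperone genes tested, 0 passed in any of the 3 comparisons (limma, fit of 9 samples with no block). Hspa5 (BiP), the Hsp70 of the ER, had 3342, 3242 and 6909.9 in mesenchymal cells, 5929.9, 5081 and 3627 at day 1 and 7053, 7989.6 and 6405 at day 3. Day 3 lay above day 1, but mesenchymal replicate 4 lay within the day 3 range, and the log2 change was 0.75 ± 0.27 (adjusted p = 0.106) at day 3 against mesenchymal cells. With scan batch as a block that change was 1.56 ± 0.31 and passed (adjusted p = 0.0174). That fit takes nothing from mesenchymal replicate 4, the mesenchymal sample of highest Hspa5 signal, and links the groups through day 1 replicate 1. What the loss of that sample adds to the change was not tested. With the replicate block Hspa5 passed at day 3 against day 1 (0.57 ± 0.12, adjusted p = 0.0278). Hsp90b1 (Grp94), the Hsp90 of the ER, had 4483, 5354 and 6058 in mesenchymal cells, 5856, 5176 and 5073 at day 1 and 5984, 6607 and 7053 at day 3, with 0.31 ± 0.15 (adjusted p = 0.239) at day 3 against mesenchymal cells. Canx (calnexin, a lectin chaperone) and Hyou1 (a nucleotide exchange factor for BiP) gave -0.64 ± 0.25 (adjusted p = 0.142) and -0.04 ± 0.24 (adjusted p = 0.948).

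Among the disulphide isomerases, Pdia6 and Pdia4 each passed once. Pdia6 had 1246, 1377 and 1931 in mesenchymal cells, 2197, 2138 and 1373 at day 1 and 2659, 2633 and 2734 at day 3 in its probe set of highest signal. All day 3 samples were above all other samples, and the log2 change was 0.82 ± 0.21 (adjusted p = 0.0264) at day 3 against mesenchymal cells (blocking on scan batch gave 1.35 ± 0.34, adjusted p = 0.0482). The other probe sets of Pdia6 changed by 0.86 ± 0.23 (adjusted p = 0.0356) and 0.92 ± 0.26 (adjusted p = 0.0436), the first with the same source sequence as the probe set of highest signal. Both calls were lost with the block (1.35 ± 0.39, adjusted p = 0.0835, and 0.92 ± 0.52, adjusted p = 0.366). Each of the 3 Pdia6 calls was lost when any 1 of 4 to 6 samples was left out (adjusted p = 0.0586 to 0.172). Pdia4 was the only member higher at day 1 than in mesenchymal cells whose day 3 signals were below those of day 1: 808, 773 and 839 in mesenchymal cells, 1344, 1279.8 and 1197 at day 1 and 1025, 961 and 1196 at day 3. Its day 1 change of 0.63 ± 0.16 (adjusted p = 0.0434) held in 5 of 20 alternatives and was lost when any 1 of 8 samples was left out (adjusted p = 0.0578 to 0.164). Pdia3, the isomerase that works with calnexin, had 1421, 2104 and 2857 in mesenchymal cells, 2261, 1878 and 1428 at day 1 and 4217, 3541 and 2342 at day 3, with 0.66 ± 0.28 (adjusted p = 0.157) at day 3 against mesenchymal cells, and it passed at day 3 against day 1 with the replicate block (0.83 ± 0.11, adjusted p = 0.0019). P4hb, the isomerase that is also a subunit of prolyl 4-hydroxylase, gave -0.15 ± 0.24 (adjusted p = 0.76) at day 3 against mesenchymal cells.

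None of the 7 co-chaperones and stress-induced ER proteins passed in the fit of 9 samples. Dnajb11, a J-domain partner of BiP, was highest among them at day 3 against mesenchymal cells (0.72 ± 0.25, adjusted p = 0.0889), and Sdf2l1, found in complexes with such partners, was lowest (-0.45 ± 0.34, adjusted p = 0.451). Herpud1, a membrane protein of ER-associated degradation, had 594, 525 and 1313 in mesenchymal cells, 535, 433 and 281 at day 1 and 1036, 895 and 669.8 at day 3. Day 3 was above day 1 in each replicate but overlapped with mesenchymal cells. The change between the days was 0.99 ± 0.33 (adjusted p = 0.222), and 0.00444 with the replicate block. Manf, Creld2, Dnajb9 and Dnajc3 lay between -0.00 and 0.39 at day 3 against mesenchymal cells over their tested probe sets.

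Translocation and signal peptide removal had 3 of 10 tested genes higher at day 3 than in mesenchymal cells, and a median of 0.21 over the 10. By probe set, 3 of 18 were higher, with a median of 0.15, against 6.54% of all probe sets tested. Tram1, a membrane protein beside the Sec61 channel, had 585, 1145 and 1185 in mesenchymal cells, 1426, 1017 and 797 at day 1 and 2775, 3089 and 1552 at day 3 in 1 probe set. Day 3 was above the rest, and the change was 1.31 ± 0.32 (adjusted p = 0.02) at day 3 against mesenchymal cells, lost when blocked on scan batch (2.11 ± 0.55, adjusted p = 0.0574) and without day 3 replicate 1, day 3 replicate 3 or mesenchymal replicate 1 (0.0719 to 0.0907). The other Tram1 probe set changed by 0.30 ± 0.24 (adjusted p = 0.484). Both Tram1 probe sets passed at day 3 against day 1 with the replicate block (adjusted p = 0.00166 and 0.0287). Ssr2, a TRAP subunit, had 1193, 1113 and 1357 in mesenchymal cells, 1336, 1722 and 1348 at day 1 and 2481, 2821 and 1869.7 at day 3, with 0.93 ± 0.19 (adjusted p = 0.00727) at day 3 against mesenchymal cells (adjusted p = 0.23 when blocked on scan batch).

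Sec61b, a small subunit of the channel, had 3063, 3025 and 3649 in mesenchymal cells, 3495, 3374 and 3262 at day 1 and 4717, 4813 and 4274 at day 3. The day 3 samples lay above all others by a small margin, with 0.50 ± 0.14 (adjusted p = 0.0397) at day 3 against mesenchymal cells, a call that held in 8 of 20 alternatives and was lost when any 1 of 6 samples was left out (adjusted p = 0.0594 to 0.140). The channel subunit Sec61a1, the TRAP subunits Ssr1 and Ssr3, the signal peptidase subunits Spcs1 and Spcs2 and the signal recognition particle proteins Srp9 and Srp14 did not pass. Spcs1 was the lowest of the 10 genes, with 584, 495 and 496 in mesenchymal cells, 285, 458 and 419 at day 1 and 299, 284 and 390.5 at day 3 (-0.62 ± 0.23, adjusted p = 0.111 at day 3 against mesenchymal cells). The lowest change of all member probe sets was that of an Ssr1 probe set on the C array, at -1.13 ± 0.45 (adjusted p = 0.132), while the other tested probe sets of Ssr1 lay between -0.12 and 0.38.

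**Figure D4:**
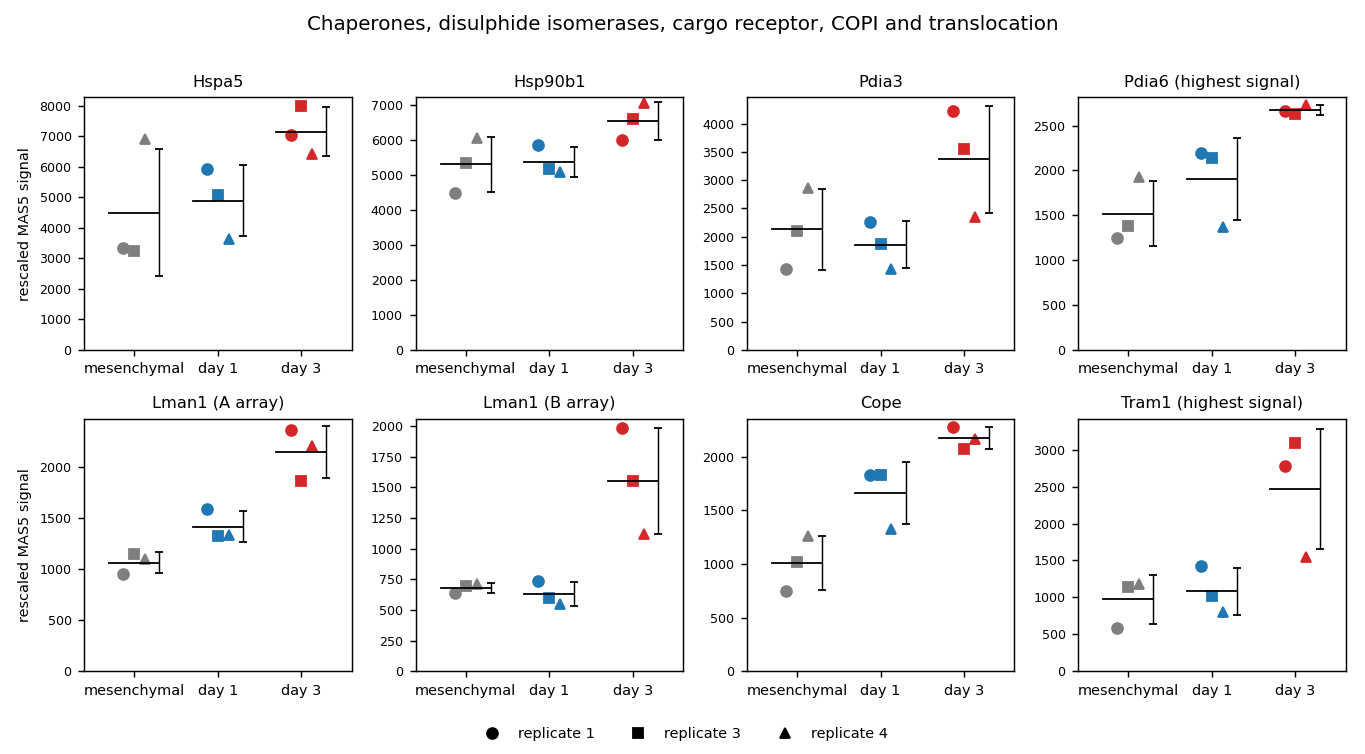
Rescaled MAS5 signal of chaperone and disulphide isomerase probe sets (upper row) and of Lman1, Cope and Tram1 (lower row) in the 9 samples, by group, with the replicate number as the marker, the group mean as a line and the SD as a bar. Day 3 overlaps with mesenchymal cells for Hspa5, Hsp90b1 and Pdia3 and lies above them for Pdia6, Lman1, Cope and Tram1.

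Promoter sequences of these genes were set beside the changes, because the known factors of the ER stress response bind short DNA motifs. RefSeq's windows of 300 bases (250 before and 50 after the annotated start, build GRCm38.p6) were available for 41 of the 48 members. Each motif was searched on both strands, and the motifs were chosen with the expression results known. The ER stress response element ERSE (CCAAT and CCACG with 9 bases between them, known to bind NF-Y and Atf6) was found in 7 of 41 members (17.1%) and in 37 of 27025 genes with a window (0.137%). It was present in 1 of the 15 members with a window that passed the threshold in some comparison without a block (Pdia6) and in 5 of the 23 that were tested and did not pass. The element TGACGTGG, the core of the UPRE to which Xbp1 and Atf6 bind, was found in 4 of 41 members (9.76%) and in 193 genes over all (0.714%), with 3 of them among the 15 that passed (Kdelr3, Sec24d and Sec23a) and 1 among the 23 that did not (Copb2). These shares were not tested, and a match is no evidence of binding.

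The 250 bases before the start are shown for the 2 members with the largest changes at day 3 against mesenchymal cells, each with a TGACGTGG match in capitals (on the reverse strand in Kdelr3, where it reads CCACGTCA). They lie at chr15:79516158-79516407, plus strand, for Kdelr3 and at chr3:123267246-123267495, plus strand, for Sec24d. The match lies 30 to 23 bases before the start in Kdelr3 and 26 to 19 bases before it in Sec24d.
Kdelr3: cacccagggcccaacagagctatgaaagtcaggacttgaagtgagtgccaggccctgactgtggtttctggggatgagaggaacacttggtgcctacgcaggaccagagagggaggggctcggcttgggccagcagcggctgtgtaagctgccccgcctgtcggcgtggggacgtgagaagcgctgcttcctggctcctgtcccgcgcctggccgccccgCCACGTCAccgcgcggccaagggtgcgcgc
Sec24d: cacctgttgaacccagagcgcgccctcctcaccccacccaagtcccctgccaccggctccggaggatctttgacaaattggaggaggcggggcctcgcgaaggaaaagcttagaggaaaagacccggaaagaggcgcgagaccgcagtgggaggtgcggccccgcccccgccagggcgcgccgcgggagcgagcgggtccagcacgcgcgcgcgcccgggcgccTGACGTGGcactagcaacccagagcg

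The same stretch is shown for 2 luminal chaperones, Hspa5 and Hsp90b1, that did not pass without a block, with the ERSE in capitals. They lie at chr2:34771840-34772089, plus strand, for Hspa5 and at chr10:86705445-86705694, minus strand, for Hsp90b1, which holds 2 matches, 1 on each strand.
Hspa5: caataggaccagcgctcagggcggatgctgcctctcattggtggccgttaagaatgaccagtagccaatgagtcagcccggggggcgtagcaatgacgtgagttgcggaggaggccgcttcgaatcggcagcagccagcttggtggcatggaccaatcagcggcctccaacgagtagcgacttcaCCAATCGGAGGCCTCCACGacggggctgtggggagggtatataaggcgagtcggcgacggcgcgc
Hsp90b1: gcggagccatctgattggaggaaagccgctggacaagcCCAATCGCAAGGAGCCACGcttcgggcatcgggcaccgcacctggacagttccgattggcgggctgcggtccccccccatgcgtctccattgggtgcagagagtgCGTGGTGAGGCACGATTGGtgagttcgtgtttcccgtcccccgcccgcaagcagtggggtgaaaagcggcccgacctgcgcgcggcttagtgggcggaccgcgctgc

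Windows of 30 bases show the remaining matches of both elements before or across the start in a form that can be compared, at chr12:17266486-17266515 for Pdia6, chr15:88819515-88819544 for Creld2, chr14:118937822-118937851 for Dnajc3, chr11:50325794-50325823 for Canx, chr8:84847069-84847098 for Calr and chr9:98563713-98563742 for Copb2, each on the strand of its gene, as is chr12:59011993-59012022 for Sec23a, whose match lies 6 to 13 bases after the start. The match is in capitals, an ERSE in the first 5 (reversed in Creld2 and Calr) and TGACGTGG in Sec23a and, reversed, in Copb2.
Pdia6: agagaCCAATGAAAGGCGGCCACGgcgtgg
Creld2: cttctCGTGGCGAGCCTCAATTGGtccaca
Dnajc3: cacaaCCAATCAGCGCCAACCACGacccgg
Canx: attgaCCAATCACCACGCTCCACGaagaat
Calr: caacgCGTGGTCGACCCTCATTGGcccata
Sec23a: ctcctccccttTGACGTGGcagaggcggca
Copb2: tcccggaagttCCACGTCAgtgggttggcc

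Creb3l2 and Xbp1 held none of the 5 motifs searched in their windows. The compact element ERSE-II (ATTGG and CCACG with 1 base between them) was found in Dnajb11 and Herpud1 (2 of 41 members, and 12 genes or 0.0444% over all), the cyclic AMP response element TGACGTCA in Cope (549 genes, 2.03% over all), and the letters TGATGNAA, read by Ddit3 and Atf4 with a C/EBP partner, in Herpud1 and Kdelr1 (1219 genes, 4.51% over all).

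**Figure D5:**
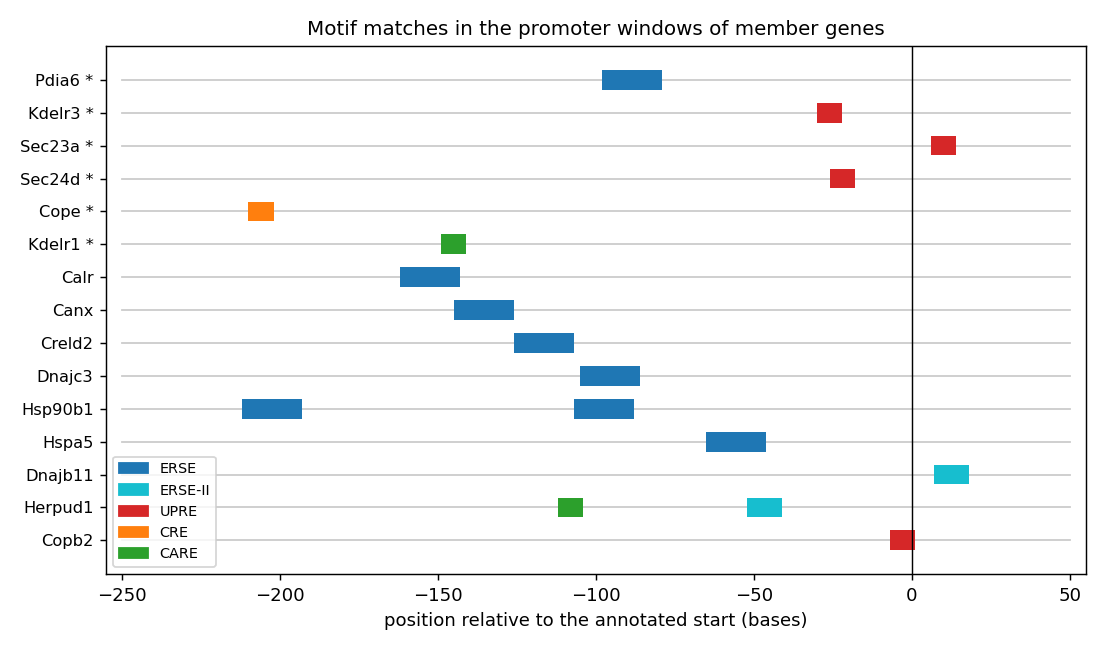
Matches to 5 motifs in the promoter windows of the 15 member genes that hold any, from 250 bases before to 50 bases after the annotated start (position 0). Members marked with an asterisk passed the threshold in at least 1 comparison without a block. Of the 7 genes with an ERSE only Pdia6 passed so, and matches of TGACGTGG (UPRE) lie near the start in Kdelr3, Sec24d, Sec23a and Copb2.

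Other genes of the pathway were counted from lists of non-members, with 1 probe set per gene. Of all probe sets tested, 6.54% were higher and 4.03% were lower at day 3 than in mesenchymal cells, and 3.61% were higher at day 1. Among 25 other oxidoreductases and folding factors, 11 were higher and 0 were lower at day 3 than in mesenchymal cells, and 3 were higher at day 1. By probe set, the unit of the share over all, 12 of 43 were higher at day 3 and 3 at day 1. The median at day 3 was 0.64 by gene and 0.28 by probe set. The 11 genes higher at day 3 included Fkbp9, an ER prolyl isomerase, at 2.05 ± 0.20 (adjusted p = 3.45e-05), its relative Fkbp7 at 1.89 ± 0.19 (adjusted p = 4.56e-05), Ppib, the cyclophilin of collagen folding, at 1.17 ± 0.15 (adjusted p = 0.000369) and the sulfhydryl oxidase Qsox1 at 1.93 ± 0.25 (adjusted p = 0.000384). Among 45 further genes of COPII, COPI and ER-Golgi transport, 5 were higher and 0 were lower at day 3. Counted by probe set, 5 of 74 were higher and 1 was lower, so the higher ones were close to the share over all. The 5 genes were led by Tmed3, a cargo receptor of the p24 family, at 2.56 ± 0.23 (adjusted p = 1.59e-05). It was followed by the COPI subunit Copz2 at 1.66 ± 0.28 (adjusted p = 0.00231). In the translocation list 2 of 13 genes were higher at day 3, namely Srp54a (1.08 ± 0.20, adjusted p = 0.00325) and Srpr (0.89 ± 0.21, adjusted p = 0.0164), which encode the signal recognition particle's GTPase and its receptor. By probe set, 3 of 30 in that list were higher.

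Stress regulators outside the member list went both ways against mesenchymal cells. Of 17 genes, 5 were higher and 1 was lower at day 3 than in mesenchymal cells. By probe set, 5 of 23 were higher and 2 were lower (6.54% and 4.03% of all probe sets tested). At day 1, 0 genes were higher and 2 were lower, and by probe set 0 of 23 were higher and 3 were lower (3.61% and 1.18% of all). The higher ones were Chac1 (1.99 ± 0.17, adjusted p = 3.26e-06), Cebpb (2.65 ± 0.27, adjusted p = 5.09e-05), Nupr1 (2.95 ± 0.34, adjusted p = 0.000127), Trib3 (1.38 ± 0.25, adjusted p = 0.00372) and Atf5 (0.73 ± 0.19, adjusted p = 0.0253), of which Chac1, Trib3 and Atf5 are known targets of Atf4 or Ddit3. The lower ones at day 1 were Asns, an amino acid synthetase gene and target of Atf4, at -1.16 ± 0.19 (adjusted p = 0.00328) and Sesn2 at -1.92 ± 0.38 (adjusted p = 0.00749). Sesn2 was also the 1 lower at day 3 (-1.26 ± 0.38, adjusted p = 0.0472). Between the days, 5 of the 17 genes were higher at day 3 and 0 were lower, with a median of 0.56. By probe set 5 of 23 were higher there, against 1.13% of all probe sets tested.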

How the data were processed

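Values were analysed for 27 arrays of 9 RNA samples. The deposited values were linear intensities, 1 for each probe set of an array, made with MAS5 per the submitters' processing notes; no version or setting is given in the sources used here. Arrays as deposited already shared a 2% trimmed mean (1500.3 to 1500.9). Each array was rescaled to 500, the 66 control probe sets of each array were dropped, and log2(signal + 50) was taken. Probe sets with a mean of 200 or more in at least 1 group (23545 of 36701) were fitted with limma 3.58.1 in R 4.3.3 (lmFit, eBayes with trend), per array type, in 1 fit of all 9 samples with group means, and Benjamini-Hochberg adjustment ran over the 3 array types together. The steps were tested on simulated data with independent noise, which held no effect of scan batch, RNA quality or pairing and so says nothing about these. The number of arrays limits the precision.

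Gene names came from GEO's platform annotation, updated to a RefSeq table of GRCm38.p6: 29131 probe sets had 1 symbol, 724 had several and 6846 had none. Where genes were counted, array type A came before B and C, and then the probe set of highest mean signal was taken. The members, roles, gene lists and motifs were chosen with earlier results of these data known. Every member is accounted for. Values are given for members that passed and for the 4 transcription factors, and for the highest and lowest of the others per role; a few further members were named after their values were seen. Of non-members, up to 4 per list with the smallest adjusted p are named, and Atf5 besides, after its value was seen.

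Same-numbered day 3 and day 1 samples had deviations from their group means that correlated at 0.11, 0.13 and 0.25 over all tested probe sets for numbers 1, 3 and 4, all over 0.1, so those numbers were taken as pairs; the labels do not state what a number marks. With mesenchymal samples the correlations were -0.20 to 0.06 over all array types and -0.50 to -0.10 on the A arrays, and no pairing was assumed. Scan batch was a fixed block, or a random one (duplicateCorrelation) for day 3 on B arrays, where batch and group coincide. Alternatives changed 1 choice at a time, except the replicate block fitted to day 1 and day 3 samples alone: normalization, pseudocount, filter, replicate block, scan batch, array weights, trend, probe set choice, the groups fitted and each sample left out. Protein sequences were not used here.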

Additional observations from a re-analysis of the deposited data

How the results depend on the processing

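Of the 35 calls of member probe sets, 12 held in all of their alternatives and 0 reversed. For day 3 on the B arrays, the scan batch block among these alternatives does not separate batch from group. The 6 higher members at day 1 against mesenchymal cells became 3 with scan batch as a block, 3 without the trend and 3 with only those groups in the fit; the range over single samples left out was 2 (without day 1 replicate 1) to 7. The 5 at day 3 against day 1 became 18 with array weights (2.9% of all probe sets were then higher, against 1.13%), 3 without the trend, 3 with 1 probe set per gene, and 23 with the replicate block fitted to the samples of both days only (2.92% of all), which changed 2 choices and was chosen after seeing the data, while the block over all 9 samples gave 4 and the samples of both days with no block gave 5; single samples left out gave 2 (without day 1 replicate 4, day 3 replicate 1 or day 3 replicate 3) to 5. The 24 at day 3 against mesenchymal cells became 11 with scan batch as a block, 1 of them (Hspa5) not among the 24, and single samples left out gave 14 (without day 3 replicate 1) to 26. The 20 members past the threshold over the 3 groups (27.8%, against 8.95% of all probe sets) became 35 with array weights (16.8% of all) and 10 to 23 with single samples left out (10 without day 3 replicate 1 and 13 without day 3 replicate 3); this F test was not run with scan batch as a block. A replicate block over all 9 samples gave 5, 4, 19 and 16 of these counts, against 6, 5, 24 and 20, and changed no direction.

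The members' median log2 change moved by more than the spread between samples under the settings named here, and the range over single samples left out is given beside them. At day 1 against mesenchymal cells the scan batch block gave 0.20; single samples left out (-0.03 to 0.08) did not move it by that much. At day 3 against day 1 it was 0.32 without the filter, and 0.35 (without day 1 replicate 4) to 0.47 with single samples left out. At day 3 against mesenchymal cells it was 0.21 without the filter, 0.60 with scan batch as a block, 0.52 with array weights, and 0.31 to 0.47 (without mesenchymal replicate 4) with single samples left out. Lower calls appeared against mesenchymal cells with array weights (1 at day 1 and 3 at day 3), without day 3 replicate 4 (1 at each day), with the filter at 500 (1 at day 3) and without the trend (1 at day 3). Without a filter, 93 member probe sets were fitted, against 72 with it. What moved these medians and counts was not tested. Probe sets below the filter carry signals at which small differences cannot be told from background.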

Other observations

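The remaining lists of the pathway were counted in the same way. Of all probe sets tested, 6.54% were higher at day 3 and 3.61% at day 1 than in mesenchymal cells, and 1.13% at day 3 than at day 1. Of 20 genes of the oligosaccharyltransferase and N-glycan processing, which attach and trim the sugars of secretory proteins, 6 were higher and 0 were lower at day 3 than in mesenchymal cells, with a median log2 change of 0.38. By probe set, 6 of 37 were higher, with a median of 0.36. The smallest adjusted p belonged to Dad1, a subunit of the transferase, at 0.74 ± 0.16 (adjusted p = 0.0108, limma), followed by Uggt1, the folding sensor of the calnexin cycle, at 0.92 ± 0.22 (adjusted p = 0.0153), and by Alg1 (1.03 ± 0.27, adjusted p = 0.0247) and Magt1 (0.66 ± 0.19, adjusted p = 0.0431). Dad1 was also the 1 gene of the list higher at day 3 than at day 1 (0.73 ± 0.16, adjusted p = 0.041). Of 17 genes of ER-associated degradation, 3 were higher and 0 were lower at day 3 than in mesenchymal cells, with a median of 0.12. By probe set, 3 of 30 were higher, with a median of 0.02. The 3 genes were Erlec1, a lectin of that pathway, at 1.41 ± 0.24 (adjusted p = 0.00168), the mannosidase-like Edem3 at 1.11 ± 0.21 (adjusted p = 0.00513) and Sel1l, the partner of the ligase Hrd1, at 1.51 ± 0.42 (adjusted p = 0.0406), whose mesenchymal mean of 135 makes the size depend on the pseudocount. At day 1 none of either list passed (limma).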
